A study of Mus musculus with 8 samples.

Results

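The 327 genomic sites described here carried a listed LRH-1 peak both before and after the ovulatory signal, while their chromatin was listed as open only after it. They were taken from 9413 LRH-1 peaks listed after the signal. A site was included if its LRH-1 peak shared at least 1 bp with an LRH-1 peak listed before the signal, shared at least 1 bp with an open-chromatin peak listed after the signal, and touched no open-chromatin peak listed before it. They are called the opening sites below. Peak presence in both assays chose them, so that presence is a description and not a finding. "Closed" before the signal means here that no open-chromatin peak was listed, which is not a measurement of zero accessibility.

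LRH-1 (NR5A2) is a nuclear receptor that binds DNA as a monomer. In the ovary it is found in granulosa cells, the somatic cells around the oocyte, where it is required for ovulation and for the formation of the corpus luteum. The surge of luteinising hormone turns granulosa cells from oestrogen production and proliferation towards progesterone production. Chromatin immunoprecipitation (ChIP) recovers the DNA that a protein was crosslinked to, and FAIRE recovers DNA that is depleted of nucleosomes. A site that is listed by ChIP but not by FAIRE is therefore one where the factor was detected and open chromatin was not.

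The study compared 2 time points in LRH-1 +/+ C57BL/6 mice aged 22 to 25 days. All mice were primed with eCG (equine chorionic gonadotropin, 5 IU), a hormone that makes follicles grow. The +OvS mice were sampled 4 h after hCG (human chorionic gonadotropin, 5 IU), which acts on the receptor of luteinising hormone and was given 44 h after eCG. The −OvS mice were sampled at 0 h, before hCG. FAIRE was made from granulosa cells freed by ovarian puncture, whereas the LRH-1 ChIP protocol started from ovarian tissue, with n = 5 per condition. The LRH-1 lists can thus hold sites of other ovarian cells. The labels state 2 replicates per time, but 1 list per assay and time was analysed here. No difference between the times could therefore be tested against the spread between animals, and no p-value is given. Intervals are 95% intervals over sites or over counted fragments and hold no variation between animals. In such bulk material, LRH-1 in more cells and more LRH-1 per cell cannot be told apart.

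The lists held 9413 LRH-1 peaks +OvS and 5886 −OvS, and 22791 FAIRE peaks +OvS and 21431 −OvS. Of the LRH-1 peaks +OvS, 3940 overlapped a −OvS peak (persistent sites) and 5473 did not (gained sites). The opening sites were 8.30% of the persistent sites (exact 95% interval 7.46 to 9.20%). The other persistent sites fell into 1372 with a FAIRE peak at both times, 873 with one before hCG only, and 1368 with none at either time. The last class is the closest comparison, because those sites also carried LRH-1 without a FAIRE peak before hCG.

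Of the 1695 persistent sites without a FAIRE peak −OvS, 19.3% had one +OvS (17.4 to 21.3%). The share was 30.8% (29.4 to 32.2%) of the 4110 gained sites without a FAIRE peak −OvS. It was 5.82% (4.47 to 7.43%) of the 1031 sites whose LRH-1 peak was listed −OvS and no longer +OvS, which are called lost sites. Sites with LRH-1 listed at both times thus lay between gained and lost sites, and the 3 intervals did not overlap. The share of the lost sites was read from −OvS peaks, and the other shares from +OvS peaks. The median width of a listed LRH-1 peak was 287 bp −OvS and 316 bp +OvS. The part of this in the shares was not tested.

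LRH-1 signal at the opening sites was higher after hCG. The authors' fold enrichment, which is the LRH-1 signal at the summit over the local background, had a median of 6.27 +OvS (quartiles 5.27 and 7.56) and 5.61 −OvS (4.87 and 6.53). It was higher +OvS at 207 of the 327 sites (63.3%), against 46.2% of all persistent sites. The ratio +OvS over −OvS had a median of 1.12 and ran between 0.469 and 2.04 across the sites, so the 2 distributions overlapped widely. On the log2 scale the median change was 0.17 (0.094 to 0.22) at the opening sites and −0.033 (−0.047 to −0.018) over all persistent sites. The listed enrichment has 1 added to both pileup and background. Without this addition the median log2 change was smaller, 0.081 (0.013 to 0.15, 1.06-fold) at the opening sites and −0.087 over all persistent sites.

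The number of fragments over the summit (the pileup), which was recovered from the listed fold enrichment and p-value, moved more than the enrichment. Its median was 31 fragments +OvS (quartiles 24 and 40) and 21 fragments −OvS (18 and 26). After scaling for the small difference between the lists (1.06-fold), it was higher +OvS at 260 sites (79.5%), against 58.6% of all persistent sites. The median scaled ratio was 1.36, which is 0.45 on the log2 scale (0.38 to 0.50). The local background moved in the same direction as the pileup. It corresponded to a median of 171 tags per 10 kb +OvS (165 to 179) and 135 tags per 10 kb −OvS (130 to 139). Its scaled log2 change was 0.35 at the opening sites and 0.19 over all persistent sites, and its part in the pileup change was not tested. The fold enrichment divides by this background, and its change was smaller than that of the pileup.

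**Figure D1:**
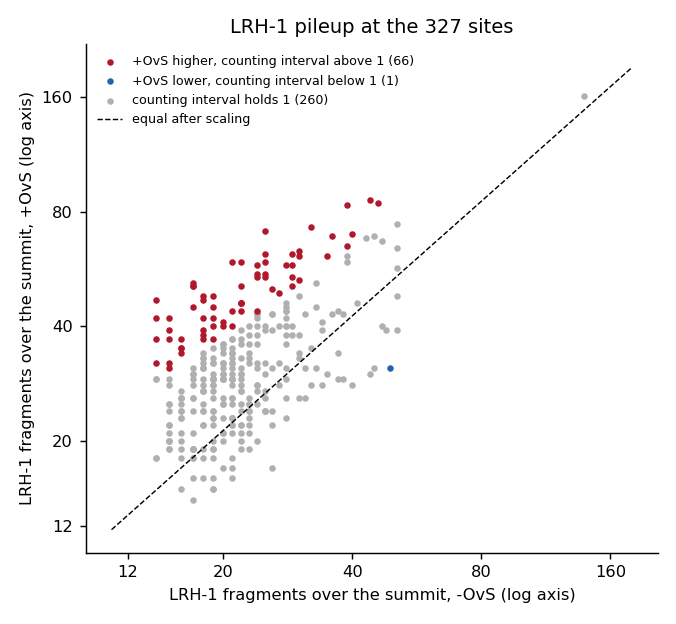
Summit pileup (fragments) at each of the 327 opening sites, +OvS against −OvS, on log axes, with a dashed line where both are equal after scaling. Red points (66) have a counting interval of the ratio above 1, the blue point (1) has one below 1, and the interval of the grey points includes 1. Most points lie above the line (260 of 327), and 1 site with 161 fragments +OvS and 139 −OvS stands apart from the others.

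LRH-1 peaks were also wider +OvS, at the opening sites and over all persistent sites. The fragment length recovered from the listed values was 233 bp +OvS and 219 bp −OvS. These are also the smallest widths among the persistent sites, so the lists start from different lowest widths. The part of this in the wider peaks was not tested. The median width was 406 bp +OvS (389 to 425) and 283 bp −OvS (274 to 297) at the opening sites, and 365 bp +OvS and 308 bp −OvS over all persistent sites. The summits of the 2 lists lay a median of 50 bp apart (42 to 53) at the opening sites and 44 bp apart (42 to 46) over all persistent sites. The −log10 q at the opening sites, the strength by which the authors' caller ranks them, had a median of 13.4 +OvS and 8.44 −OvS.

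Before hCG the opening sites had LRH-1 values close to those of the persistent sites that stayed without a FAIRE peak. The median −OvS enrichment was 5.61 (5.50 to 5.78) at the opening sites and 5.69 (5.58 to 5.78) at the sites without FAIRE at either time. Both had a median −OvS pileup of 21 fragments, and the −log10 q was 8.44 and 8.48. Sites already open at both times stood higher −OvS, with an enrichment of 6.21 (6.13 to 6.39), 25 fragments and a −log10 q of 11.1.

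After hCG the opening sites had values close to those of the sites open at both times. Their median +OvS enrichment was 6.27 (6.05 to 6.51), against 6.28 (6.13 to 6.41) at the sites open at both times. The median pileup was 31 fragments in both classes, and the −log10 q was 13.4 at the opening sites and 13.6 at the sites open at both times. The median width was 406 bp at the opening sites and 400.5 bp at the sites open at both times. The sites that stayed without FAIRE had an enrichment of 5.68, 25 fragments and a width of 337 bp +OvS.

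**Figure D2:**
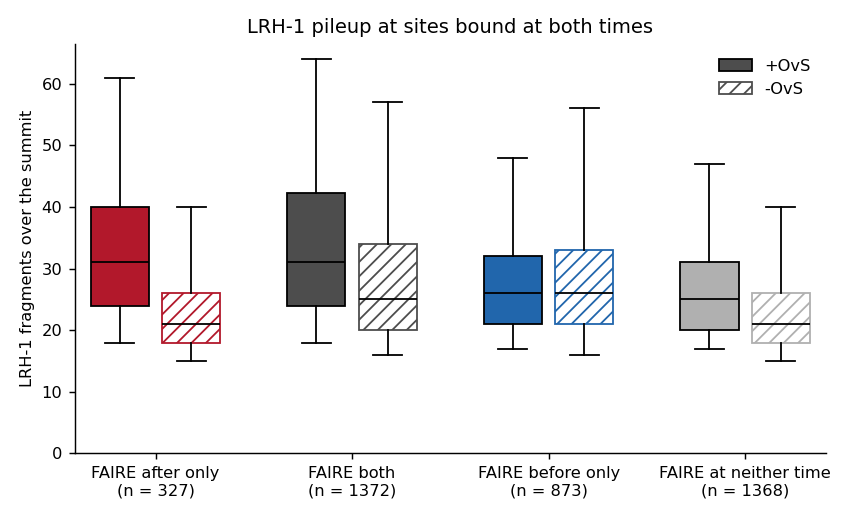
Summit pileup (fragments) of LRH-1 by FAIRE class of the persistent sites, +OvS beside −OvS. Lines are medians, boxes quartiles and whiskers the 5 to 95% range of sites. The opening sites have a median of 31 fragments +OvS and 21 −OvS, level with the sites open at both times +OvS (31) and with the sites without FAIRE −OvS (21).

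The change in LRH-1 enrichment went with the FAIRE class. The median log2 change was 0.17 (0.094 to 0.22) at the opening sites, −0.011 (−0.034 to 0.0050) at sites without FAIRE at either time, −0.013 (−0.041 to 0.010) at sites open at both times and −0.16 (−0.19 to −0.14) at sites with a FAIRE peak before hCG only. The interval of the opening sites did not overlap that of any other class. The scaled pileup gave the same order of the extremes, with a median log2 change of 0.45 at the opening sites and −0.14 at sites with FAIRE before hCG only. The classes were defined by overlap with FAIRE peaks, and a listed LRH-1 peak at both times was required of all of them. The rule used the whole LRH-1 +OvS peak, so a wider peak could meet a FAIRE peak more readily. The median +OvS width was 406 bp at the opening sites and 400.5 bp at sites open at both times. It was 348 bp at sites with FAIRE before hCG only and 337 bp at sites without FAIRE. The median log2 change at the opening sites minus all persistent sites was 0.20. It was 0.21 (0.12 to 0.26) where the summit base alone decided the overlaps.

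**Figure D3:**
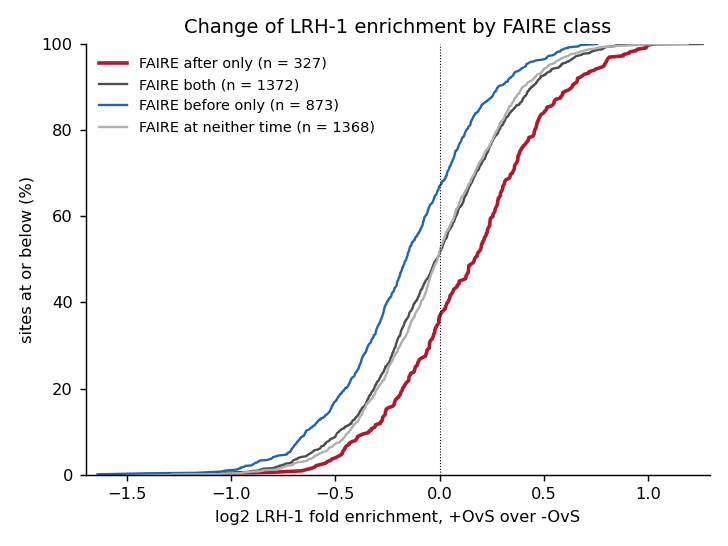
Cumulative share of sites (%) at or below each log2 change in the authors' LRH-1 fold enrichment (+OvS over −OvS), 1 line per FAIRE class of the persistent sites. The line of the opening sites lies to the right of the others, with a median of 0.17, and that of the sites with FAIRE before hCG only lies to the left, with a median of −0.16.

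Large changes at single sites were uncommon but were more frequent at the opening sites than over all persistent sites. An enrichment at least 1.5-fold higher +OvS was found at 40 opening sites (12.2%, 8.88 to 16.3%), against 4.16% of all persistent sites. An enrichment at least 1.5-fold lower was found at 7 (2.14%), against 6.55%. At least 2-fold higher was 1 site (0.102% over all persistent sites), and at least 2-fold lower was 1 site (0.457%). The scaled pileup was at least 1.5-fold higher at 120 opening sites (36.7%), against 15.2% of all, and at least 1.5-fold lower at 5 (1.53%), against 7.74%. The exact 95% counting interval of the pileup ratio lay above 1 at 66 opening sites (20.2%), against 7.59% of all persistent sites, and below 1 at 1 site (0.306%), against 4.06%. At the remaining 260 sites the interval included 1, so at this depth a change at those single sites was not detectable.

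How strong LRH-1 was before hCG did not order the sites by whether they opened. The 1695 persistent sites without FAIRE −OvS were split into 5 groups of 339 by strength. From the weakest to the strongest group by −log10 q −OvS, the share with a FAIRE peak +OvS was 22.7, 15.6, 21.2, 19.5 and 17.4%. The intervals of the first (18.4 to 27.5%) and the last (13.5 to 21.9%) overlapped. The −OvS pileup gave 17.7 to 22.4% across its 5 groups with no steady order. By −log10 q +OvS the share was 12.1, 12.4, 15.6, 22.7 and 33.6%, with an interval of 8.82 to 16.0% in the weakest and 28.6 to 38.9% in the strongest group. Across 5 groups by the change in scaled pileup, from the largest fall to the largest rise, it was 10.0, 12.7, 14.7, 20.1 and 38.9%. The share with FAIRE +OvS thus followed LRH-1 strength at the same time, and showed no such order by LRH-1 strength before hCG.

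**Figure D4:**
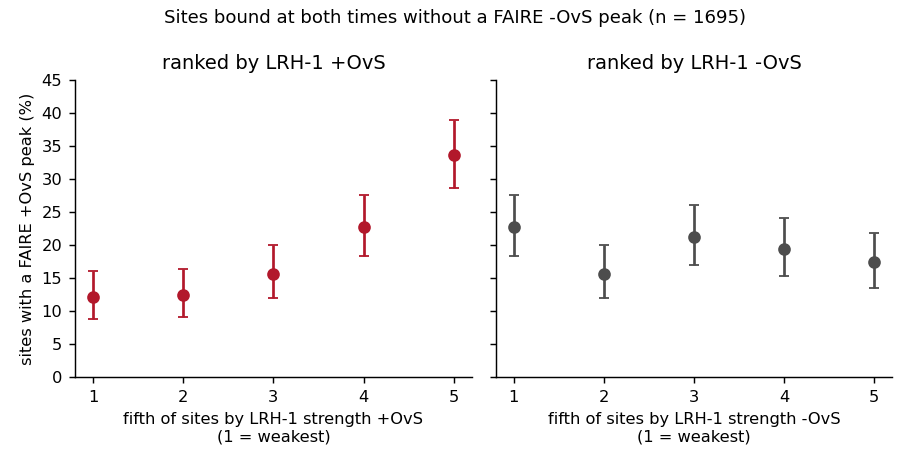
Share (%) of persistent LRH-1 sites without FAIRE −OvS that had a FAIRE peak +OvS, in 5 groups of LRH-1 −log10 q +OvS and −OvS (339 sites each), with exact 95% intervals. By +OvS strength the share is 12.1% in the weakest and 33.6% in the strongest group, and by −OvS strength it is 22.7% and 17.4%.

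The enrichment change was also read among sites of like peak strength. Each split used the strength at a single time, which also enters the change. An order of the change across groups is thus favoured by the split itself and is not a finding. Only classes within the same group are compared. Persistent sites were split into 3 equal groups by −log10 q +OvS. In the strongest group the median log2 change was 0.37 at the 142 opening sites and 0.17 over all persistent sites. In the middle group it was 0.14 at 108 opening sites and −0.0037 over all. In the weakest group it was −0.19 at 77 opening sites and −0.21 over all. This difference of 0.029 had an interval of −0.030 to 0.091, which includes 0. The sites without FAIRE at either time stood at −0.16. The excess of the opening sites over all persistent sites was therefore small among the weakest +OvS peaks. In 3 groups by −log10 q −OvS, from the weakest to the strongest, the median was 0.29, 0.062 and −0.030 at the opening sites, and 0.16, −0.058 and −0.24 over all persistent sites. The opening sites were higher in each of these groups, a split that was added after the data were seen. Their intervals overlapped those of the sites open at both times in all 3 groups. They were 0.229 to 0.372 against 0.157 to 0.235 in the weakest group and −0.0048 to 0.193 against −0.053 to 0.044 in the middle group. In the strongest group they were −0.18 to 0.094 against −0.22 to −0.15. The intervals of the sites without FAIRE at either time lay below those of the opening sites in all 3 groups.

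FAIRE scores at the opening sites were close to those of all FAIRE +OvS peaks and higher than those of FAIRE peaks listed after hCG only. The 327 sites lay in 325 FAIRE +OvS peaks, of which 2 held 2 sites each. The authors' FAIRE score at the sites ran between 40.1 and 447, with a median of 74.6 (69.0 to 79.7), and no score under 40 is listed. Over all FAIRE +OvS peaks the median was 71.4, and over the 11256 that overlapped no FAIRE −OvS peak it was 61.2 (60.6 to 62.0). At 60 sites (18.3%) the score was under 50, close to the lowest listed value. FAIRE peaks at gained sites in newly listed chromatin had a median of 84.4 (81.0 to 88.6), and those at sites open at both times had 99.0 (94.6 to 103). The 9681 FAIRE peaks listed after hCG only and holding no LRH-1 peak had a median of 59.3. Opening sites therefore lay above newly listed FAIRE peaks without LRH-1 and below those of sites already open.

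**Figure D5:**
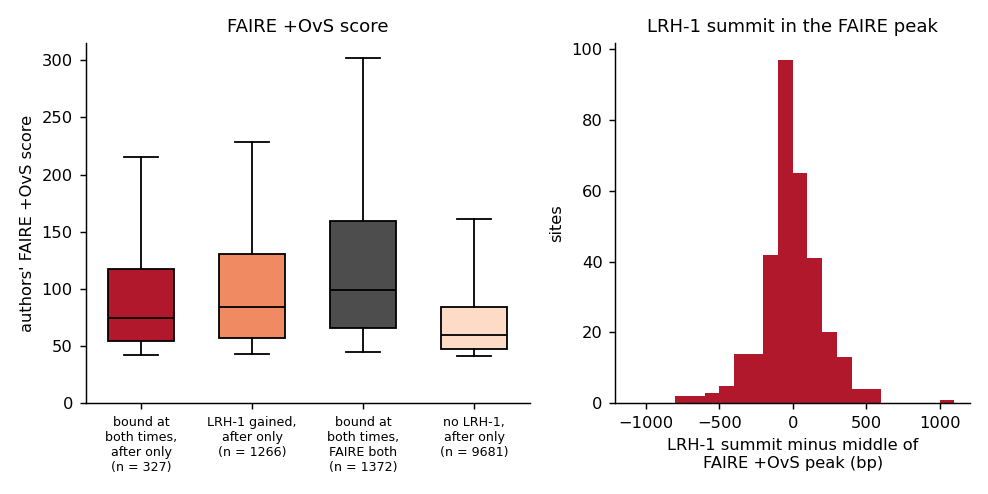
FAIRE +OvS score at the opening sites and at the comparison classes, (lines are medians, boxes quartiles, whiskers the 5 to 95% range), and a histogram of the distance of LRH-1 summits of the opening sites from the middle of the FAIRE peak (bp). The opening sites have a median score of 74.6, and 74.9% of their LRH-1 summits lie within 200 bp of the middle.

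LRH-1 lay near the middle of the FAIRE peaks, as it did at the other classes with a FAIRE peak +OvS. All these sites were chosen because their LRH-1 peak meets a FAIRE +OvS peak. A summit inside that peak is thus favoured by the rule, and these values are a description. The FAIRE peaks had a median width of 925 bp. The LRH-1 summit lay inside the FAIRE peak at 314 sites (96.0%), a median of 100.5 bp from its middle, and within 200 bp of it at 245 sites (74.9%). The summit lay inside at 96.1% of the sites open at both times and at 97.3% of the gained sites in newly listed chromatin, and within 200 bp of the middle at 75.3% and 78.4% of them. The whole LRH-1 peak lay inside at 260 opening sites (79.5%), against 86.7% of the sites open at both times and 90.3% of those gained sites. The LRH-1 peaks of those gained sites were narrower, with a median of 312 bp, against 406 bp at the opening sites.

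The height of the FAIRE peak and the LRH-1 change were only loosely related among the opening sites. In 3 groups by FAIRE score (109 sites each), from low to high, the median log2 change in enrichment was 0.14, 0.17 and 0.23. The median pileup in these groups was 29, 31 and 32 fragments +OvS and 21, 22 and 21 fragments −OvS. Across the 327 sites the Spearman coefficient between the FAIRE score and the log2 change in enrichment was 0.059, and that with the scaled pileup change was 0.15. Sites are not independent replicates, and all come from the same pair of lists. The pileups at the 2 times had a Spearman coefficient of 0.48 across the opening sites and 0.57 across the sites open at both times.

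The opening site with the highest −log10 q +OvS was at chr12:80599949-80600395 (mm9, the build named in the submitters' processing notes). It had 161 fragments +OvS and 139 −OvS, with an enrichment of 20.9 +OvS and 23.5 −OvS. The scaled ratio of 1.09 had a counting interval of 0.862 to 1.38, which includes 1. Its summits were 5 bp apart, and its FAIRE score was 58.0. The strongest LRH-1 site in the set was thus already strong before hCG, with no change detectable at this depth, and its FAIRE score was below the median of the set.

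The others among the 10 strongest also had more fragments after hCG. All 10 were ranked by strength +OvS, which favours a higher +OvS value, so this is a description. In the strongest of 3 groups by this measure, the median log2 change in enrichment over all persistent sites was 0.17. The second, at chr1:78384564-78385077, had 86 fragments +OvS and 44 −OvS, a scaled ratio of 1.84 (1.26 to 2.71). The site at chr2:51220843-51221326 had 71 fragments +OvS and 25 −OvS, a ratio of 2.67 (1.67 to 4.40), and a FAIRE score of 202. The site at chr14:26165550-26165966 had 83 fragments +OvS and 39 −OvS, a ratio of 2.00 (1.35 to 3.01). Of the 10, 8 had a higher enrichment +OvS, and the counting interval of the pileup ratio lay above 1 at 6 and below 1 at 0. Their −OvS peaks had 25 to 139 fragments, against 12 fragments at the smallest peak of the −OvS list. Their distance to the nearest FAIRE −OvS peak was 846 to 135513 bp.

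The 5 largest rises in enrichment started from weak −OvS peaks. The largest was at chr7:52395498-52396038, with an enrichment of 8.79 +OvS and 4.32 −OvS and with 42 fragments +OvS and 14 −OvS, a pileup ratio of 2.82 (1.51 to 5.59). The site at chr4:136515967-136516392 had 48 fragments +OvS and 18 −OvS. The 5 sites had 42 to 52 fragments +OvS and 14 to 18 −OvS, and the counting interval lay above 1 at all 5. They were chosen for this rise, so it is a description.

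Falls at single opening sites were less securely measured. The largest was at chr3:27506409-27506667, with an enrichment of 4.45 +OvS and 9.49 −OvS and with 31 fragments +OvS and 49 −OvS, a ratio of 0.595 (0.367 to 0.951). At the other 4 of the 5 largest falls the counting interval included 1. The site with the highest FAIRE score (447), at chr11:109472071-109472495, had 29 fragments +OvS and 38 −OvS, with a ratio interval of 0.427 to 1.19 that includes 1. The enrichment was higher +OvS at 4 of the 5 sites with the highest FAIRE scores, but the counting interval of the pileup ratio included 1 at all 5. The LRH-1 peak on chr11 shared only 6 bp with that FAIRE peak.

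A few sites rested on the 1 bp limit of the rule. The smallest overlap with a FAIRE +OvS peak was 2 bp, at chr3:101609729-101610105, and the nearest persistent site left out for lack of overlap lay 7 bp from one. The opening site nearest to a FAIRE −OvS peak lay 1 bp from it, and the smallest FAIRE −OvS overlap that kept a site out was 10 bp. At 18 opening sites (5.50%) the FAIRE +OvS peak itself also overlapped a FAIRE −OvS peak beyond the LRH-1 peak, and at 4 the LRH-1 −OvS peak did. The sites lay a median of 15284 bp from the nearest FAIRE −OvS peak (13065 to 18999), with 28 (8.56%) within 1 kb and 204 (62.4%) beyond 10 kb. At the persistent sites without FAIRE at either time this distance had a median of 14564.5 bp.

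The surroundings of the opening sites held about as many LRH-1 and newly listed FAIRE peaks as those of all persistent sites. A gained LRH-1 peak lay within 10 kb of 36 of them (7.83 to 14.9%), against 12.2% of all persistent sites, and within 50 kb of 47.1%, against 43.5%. Another FAIRE peak listed after hCG only lay within 10 kb of 22.9%, against 21.4%, and within 50 kb of 60.6%, against 59.5%. FAIRE peaks listed at both times were less frequent close by. One lay within 5 kb of 5.81% (3.53 to 8.93%) of the opening sites. The share was 11.3% of all persistent sites and 16.1% of the sites without FAIRE at either time. At sites open at both times it was also below that of all persistent sites. Within 10 kb it was 18.3% (14.3 to 23.0%) at the opening sites, 21.5% over all persistent sites and 25.4% without FAIRE. Within 50 kb it was 60.2% at the opening sites, against 62.0% of all persistent sites. A FAIRE peak listed before hCG only lay within 5 kb of 12.2% (8.88 to 16.3%) of the opening sites, against 8.91% of all persistent sites. The sites were spread out. They fell into 273 windows of 1 Mb, of which 232 held 1, 28 held 2 and 13 held 3. The tightest 3 spanned 83770 bp of chr14, from 77015312 to 77099081, and had 46, 17 and 43 fragments +OvS and 28, 26 and 31 fragments −OvS. The counting interval of the pileup ratio included 1 at all 3.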

How the data were processed

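Per the submitters' processing notes, reads were aligned with BWA to mm9, LRH-1 peaks were called with MACS2 2.1.0 and bedtools was used; roles and order are not given. For each LRH-1 peak the authors deposited its summit and a score, with signal as a fold enrichment ratio and significance as −log10 p and −log10 q (p-value and q-value). For each FAIRE peak the authors deposited coordinates with a score. The FAIRE caller and depth, the ChIP control, the caller settings and any pooling of the 2 stated replicates are not given in the sources used here.

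Analysis used pandas 2.3.3, numpy 2.4.6, scipy 1.17.1 and matplotlib 3.10.9 under Python 3.11.15. Overlap means a shared stretch of 1 bp or more, and printed starts count from 1. Where several peaks overlapped, the one with the largest overlap was paired. Pileup and background were recovered from the fold enrichment, as (pileup + 1) over (background + 1), and from the Poisson p-value. A whole pileup within 0.001 of the listed −log10 p was found for 100% of peaks in both lists. The background was given as tags per 10 kb; if no separate control was used, it holds the peak's own tags. Pileups were scaled by the ratio of the 2 lowest backgrounds, 1.06. The lowest background per base of fragment length was 0.010376 in both lists, so this ratio is that of the fragment lengths. Pileup ratios have exact conditional binomial intervals, shares have Clopper-Pearson intervals and medians have order-statistic intervals, all at 95%; they cover counting error or the spread over sites only. The recovery was tested on simulated data.

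The sites, comparisons and alternatives were chosen with earlier results of these data known. Sites were named by rank: the 10 with the highest −log10 q +OvS, the 5 largest rises and 5 largest falls in enrichment, the 5 highest FAIRE scores and those at the limits of the rule; some are given as a summary. The 12 RNA tables were not used: no mm9 sequence or annotation was used here, so no sequence, motif or gene is given. Alternatives were other overlap rules, stricter or equal lists, other measures and groups of like strength.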

Additional observations from a re-analysis of the deposited data

How the results depend on the processing

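Across 161 recomputed values, 135 stayed close to the reported value. A reported value with an interval was judged by that interval alone. A reported count without an interval was judged by a limit of 1.5 times the count. Differences of the opening sites from all persistent sites in near neighbours changed sign within 5 kb: for a gained LRH-1 peak 0.505 percentage points, against −1.17 within 10 kb, and for a FAIRE peak after hCG only −0.412, against 1.54 within 10 kb. All 4 intervals include 0. FAIRE peaks listed at both times were not among these recomputed values. Such a peak lay within 5 kb of 5.81% (3.53 to 8.93%) of the opening sites, against 11.3% of all persistent sites. The 327 opening sites became 174 with FAIRE +OvS peaks above their median score and 134 with LRH-1 peaks above the median −log10 q of their lists. Their share of persistent sites, 8.30%, became 4.42% and 7.22% in these settings and 7.26% with an overlap of 50% of the LRH-1 peak. The median log2 enrichment change of the opening sites minus that of all persistent sites was 0.20. It was positive in all 21 alternatives, at 0.40 with −log10 p, 0.52 with −log10 q and 0.34 with the scaled pileup. In the weakest of 3 groups by +OvS strength it was 0.029, with an interval of −0.030 to 0.091 that includes 0. It was 0.12 in the middle of 3 groups by −OvS strength. The scaled pileup, the counting interval, the groups by −OvS strength and the ratio without added constants were chosen after the data were seen. The 40 sites at least 1.5-fold higher became 26 and 11 in the 2 stricter lists, 1 at 2-fold and 66 by the counting interval, and the 7 at least 1.5-fold lower became 3, 3, 1 and 1. For these the cause was not tested. Motif, sequence and RNA alternatives were not run. No paired analysis was possible because each assay has 1 list per time and the labels give no replicate numbers. Fragments per summit limit single sites, and FAIRE depth is unknown.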

Other observations

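By chromosome, the opening sites were between 2.5% of the persistent sites on X (1 of 40) and 12.1% on chromosome 13 (21 of 174). Chromosome 1 held 13 of 274 (4.74%, exact 95% interval 2.55 to 7.98%). Chromosome 2 held the most opening sites, 26, and also the most persistent sites, 316. Its share of 8.23% was close to the 8.30% over all persistent sites.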
